A study of Mus musculus with 21 samples.

Results

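The 12 QuantSeq libraries of *Ebf1*-deficient LPs that received sgRNAs against *Lmo2*, *Zbtb1*, *Cbfa2t2* or *Cbfa2t3* were taken as 1 group and compared with the 3 sgControl libraries, to ask which transcripts differed from sgControl in the same direction whichever of the 4 genes was targeted. These 15 libraries are 15 of the 21 samples of the series. Of 55421 genes in the table, the 11554 whose mean across the 15 libraries exceeded 1 TPM were used. *Cnbd2* and *Gm28557*, with means of 0.9991 and 0.9997 TPM, were the last outside this limit, and *Isg15* and *Gm26652*, with 1.001 and 1.003 TPM, were the first inside it.

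LPs are lymphoid progenitors, here a C57BL6/J mouse cell line that lacks *Ebf1* and was grown on OP9 stromal cells with SCF, IL-7 and Flt3L at 10 ng/ml each. All 5 groups carried retroviral Cas9-GFP, and each then received retroviruses with a pool of 2 sgRNAs per target and a surface marker. The groups, with 3 libraries each, were sgLmo2, sgZbtb1, sgCbfa2t2, sgCbfa2t3 and sgControl, whose sgRNAs are directed against luciferase. Luciferase has no site in a mouse genome, so that loss of a target gene and cutting of the genome cannot be told apart in the pooled comparison. The cells were a sorted pool of one line rather than separate animals, and p-values measure the spread between these libraries.

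Lmo2 is a LIM-domain protein that bridges DNA-binding factors in large transcriptional complexes of blood progenitors. Cbfa2t2 and Cbfa2t3 are ETO-family corepressors that recruit histone deacetylases, and Zbtb1 is a BTB zinc-finger factor needed for lymphocyte development. QuantSeq primes reverse transcription with oligo-dT and reads 1 fragment near the 3′ end of an RNA, so a gene with introns is mostly counted at the end of its spliced transcript.

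The libraries held 1705417 to 2095448 reads, and 3 reads corresponded to 1.43 to 1.76 TPM. The 3 sgControl libraries, at 1705417 to 1727731 reads, were the shallowest, below the 1751379 to 2095448 reads of the other 12, and the part of this difference in the results was not tested. TPM here is a read count scaled to the size of the library and was not divided by transcript length, so levels are compared only within a gene. Of 11 progenitor markers, 9 were tested. Among them *Flt3* averaged 231 TPM in sgControl against 233 TPM in the 12 libraries, *Il7r* 161 and 159 TPM, and *Dntt* 78.2 and 88.5 TPM. *Kit* averaged 22.3 and 15 TPM without passing (log2 difference -0.62, limma, adjusted p = 0.30 with the group means fitted separately), and *Bcl11a* and *Ly6d*, which did pass in that fit, are described further on. The markers summed to 677 to 727 TPM in sgControl and 518 to 792 TPM in the others, with 9 of 12 libraries below sgControl. Markers of OP9 stroma summed to at most 17.4 TPM in sgControl and to between 4.42 and 21.0 TPM in the others, 8 of their 27 genes in the table were at 0 in all libraries, and the 2 that were tested, *Pdgfrb* and *Timp3*, were lower in all 4 groups without passing. Where a value is given for each targeted group, the order is sgLmo2, sgZbtb1, sgCbfa2t2 and sgCbfa2t3.

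No targeted mRNA was lower under its own sgRNA past the threshold and 2 were higher, so groups are named by their labels. The paper reports loss of the Lmo2, Zbtb1 and Cbfa2t3 proteins by immunoblot after sgRNA introduction in such cells. Protein was not measured in these libraries. *Zbtb1* was at 55.7, 62.7 and 66.6 TPM in sgControl and reached 94.4, 109 and 113 TPM under its own sgRNA, a log2 difference of 0.77 (limma, adjusted p = 0.0010). *Cbfa2t3* was at 172, 189 and 210 TPM in sgControl and reached 340, 344 and 364 TPM under its own, a log2 difference of 0.88 (limma, adjusted p = 1.7e-07). *Cbfa2t2* averaged 11.8 ± 0.698 TPM (SD, n = 3) in sgControl and 21.9 ± 4.85 TPM (SD, n = 3) in sgCbfa2t2, which missed the threshold (limma, adjusted p = 0.41). *Lmo2* averaged 18.4 ± 4.17 TPM (SD, n = 3) in sgControl and 16.3 ± 7.99 TPM (SD, n = 3) in sgLmo2, a log2 difference of -0.26 (limma, adjusted p = 0.96). None of the 4 passed in the comparison of the 12 libraries with sgControl, with pooled log2 differences of 0.19 for *Zbtb1*, 0.22 for *Cbfa2t3*, 0.34 for *Cbfa2t2* and -0.20 for *Lmo2*. *Ebf1* itself was read at 305 to 366 TPM in sgControl of this *Ebf1*-deficient line.

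Of the 11554 genes, 2351 were higher than sgControl in all 4 group means (20.3%) and 2467 were lower in all 4 (21.4%). The 4 comparisons share the 3 sgControl libraries, so a deviation of these 3 enters all of them. Were the 5 group means alike, sgControl would be the lowest in 20% of genes and the highest in 20%, so these shares by themselves set nothing apart. In 50 genes (0.433%) each of the 12 libraries lay above all 3 sgControl libraries, and in 70 genes (0.606%) each lay below, 120 in all (1.04%). In the comparison of the 12 libraries with the 3 in limma, no gene (0%) had an adjusted p under 0.05. The smallest, 0.061, belonged to *H2-Oa*, and 1037 genes (8.98%) had an unadjusted p under 0.05, 478 higher (4.14%) and 559 lower (4.84%). In the same comparison edgeR also called no gene, with 959 at an unadjusted p under 0.05, and DESeq2 called 2.

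The 12 libraries are not alike, and their spread holds the differences between the 4 sgRNAs. In a fit with 5 group means, which takes the spread only from libraries of the same group, the average of the 4 sgRNA groups differed from sgControl in 71 genes (0.615%, limma, adjusted p under 0.05). Of these, 38 were lower (0.329%) and 18 higher (0.156%) in all 4 groups, and these 56 (0.485%) are called the shared genes in what follows. The other 15 were lower on average but not in sgLmo2. This fit was planned as an alternative, and its use to name genes was decided after the values were seen. Without the 3 sgZbtb1 libraries the fit called 5 of the 56 genes (*Gria2*, *Kcnq1ot1*, *Malat1*, *H2-Oa* and *Selenot*). All 56 kept their direction, which could not fail, since they were chosen for 1 direction in all 4 groups. Of the 56, 55 had an unadjusted p under 0.05. They had been chosen with these same remaining libraries, so that count does not offset the fall to 5. Without the 3 sgLmo2 libraries the fit called 200 with a shared direction, 55 of the 56 among them. The count leaned on the sgControl libraries. It was 34 without the first, 17 without the second and 13 without the third of them, with 19, 13 and 10 of the 56 still called, and it was 34 without the first sgLmo2 or the third sgZbtb1 library. Without limma's trend it was 2.

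*H2-Oa*, a gene on chromosome 17 (34092340 to 34095234, GRCm38) for the α chain of the class II chaperone H2-O, which tunes peptide loading in antigen-presenting cells, differed most among the higher genes. It was at 4.07, 4.10 and 7.52 TPM in sgControl, and at 10.5 to 21.3 TPM with a median of 16.1 TPM in the 12 libraries. All 12 lay above all 3 sgControl libraries. The log2 difference was 1.41 ± 0.27 (SE, limma, adjusted p = 0.0022 with group means and 0.061 with the 12 libraries as 1 group). The group means were 16.3, 13.8, 17.8 and 14.1 TPM, and no difference among the 4 was found (limma F-test, adjusted p = 0.87).

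*Selenot*, which encodes a thioredoxin-like selenoprotein of the endoplasmic reticulum, was at 55.0, 56.9 and 65.1 TPM in sgControl and at 68.4 to 113 TPM (median 90.1 TPM) in the 12 libraries. Its log2 difference was 0.62 ± 0.11 (SE, limma, adjusted p = 0.0013 with group means and 0.086 with 1 group). Each group against sgControl gave log2 differences of 0.72, 0.40, 0.74 and 0.60 (limma, adjusted p = 0.028, 0.094, 0.0064 and 0.025), and among the 18 higher genes *Selenot* was the 1 that passed in the comparison of sgLmo2 with sgControl.

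*Limd2*, a small LIM-domain protein gene, was at 184, 185 and 195 TPM in sgControl and at 216 to 280 TPM (median 239 TPM) in the 12 libraries. *Nop10*, a component of the H/ACA particles that guide pseudouridylation, was at 377, 378 and 389 TPM against 413 to 522 TPM (median 474 TPM). *Mrpl18*, of the mitochondrial ribosome, was at 118, 118 and 125 TPM against 135 to 174 TPM (median 155 TPM). The 4 groups lay close together in these genes, with log2 differences from 0.33 to 0.39 in *Limd2*, 0.24 to 0.36 in *Nop10* and 0.33 to 0.38 in *Mrpl18*, with adjusted p-values of 0.017, 0.020 and 0.045 (limma, group means).

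*Atp5e*, a subunit of the mitochondrial ATP synthase, was at 222, 236 and 247 TPM in sgControl and 259 to 338 TPM in the others (log2 difference 0.30, limma, adjusted p = 0.045 with group means). *Sf3b5*, of the SF3b splicing complex, was at 80.5, 94.1 and 104 TPM against 108 to 149 TPM (0.41, limma, adjusted p = 0.037). The remaining non-overlapping higher genes were *Ttc32* (0.82), *Commd10* (0.69), *Klhdc4* (0.55) and *Mydgf* (0.48). Among higher genes with overlap were *Cct7*, a chaperonin subunit, *Prmt1*, an arginine methyltransferase, *Pa2g4* and the autophagy enzyme gene *Atg7*, with log2 differences of 0.24, 0.29, 0.24 and 0.83.

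**Figure D1:**
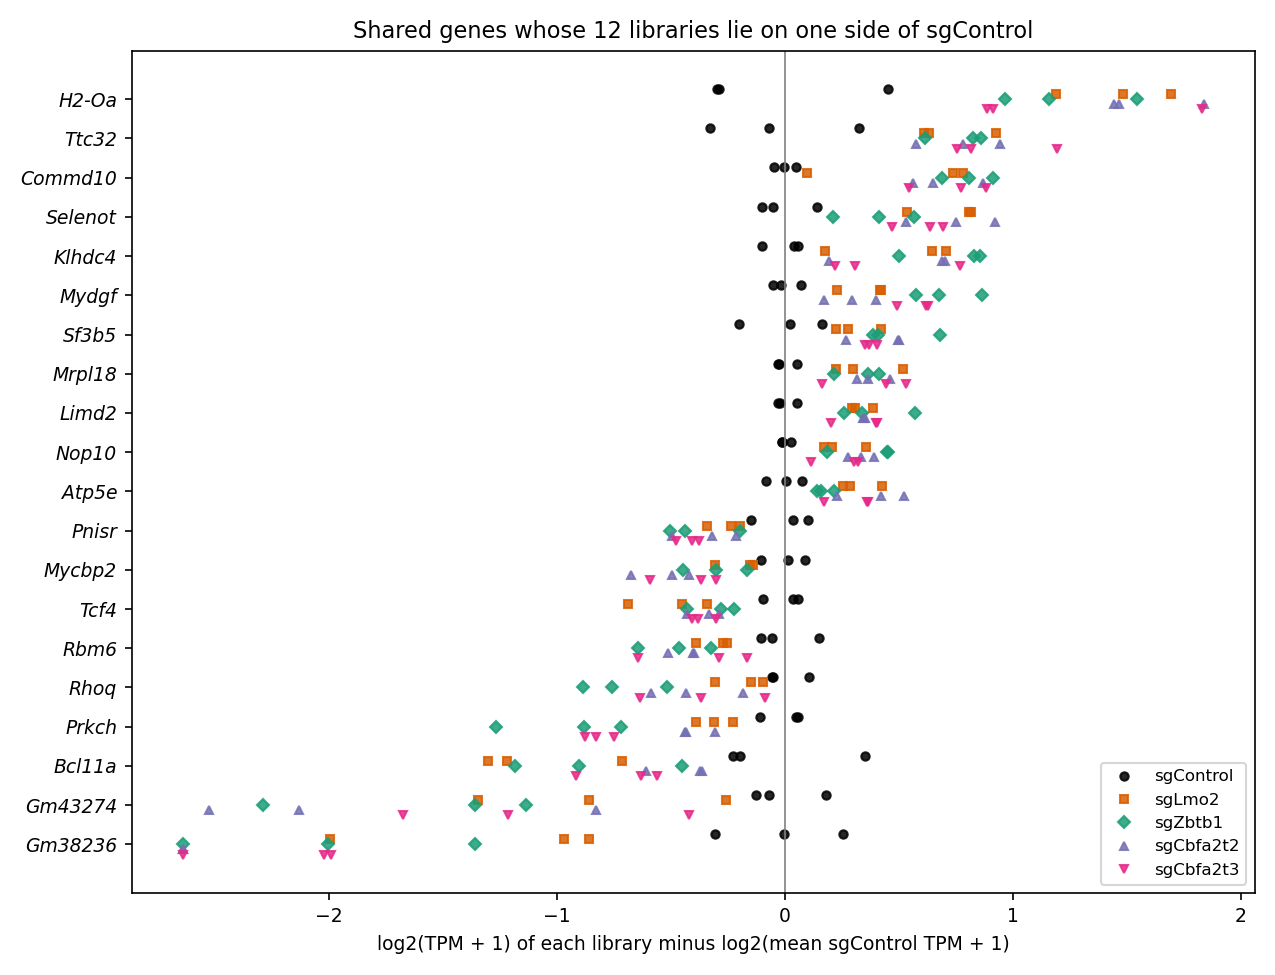
Each point is 1 library, placed by its log2(TPM + 1) minus the log2(mean sgControl TPM + 1) of that gene, for the 20 shared genes whose 12 libraries lie on one side of the 3 sgControl libraries (black circles). The 11 higher genes run from *Atp5e* to *H2-Oa*, the 9 lower ones from *Pnisr* to *Gm38236*, and colours and shapes mark the 4 sgRNA groups.

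The 25 protein-coding genes that were lower had varied known roles, and those without overlap are described first with those of the gene lists. *Bcl11a* (chromosome 11, 24078056 to 24174123), a zinc-finger factor needed by lymphoid progenitors, was at 38.1, 38.9 and 57.3 TPM in sgControl and at 17.5 to 34.6 TPM (median 27.7 TPM) in the 12 libraries. All 12 lay below sgControl, and the group log2 differences were -1.05, -0.82, -0.42 and -0.68. The pooled difference was -0.74 ± 0.19 (SE, limma, adjusted p = 0.038 with group means and 0.25 with 1 group). *Tcf4*, which encodes the E protein E2-2, a DNA-binding partner of Lmo2-type complexes, was at 190, 209 and 212 TPM against 126 to 175 TPM (median 158 TPM), a log2 difference of -0.38 (limma, adjusted p = 0.021). sgLmo2 was the lowest group for both genes.

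*Ebf1* reads were at 305, 338 and 366 TPM in sgControl and at 209 to 310 TPM (median 252 TPM) in the others, so that 11 of 12 libraries lay below sgControl (log2 difference -0.39, limma, adjusted p = 0.0037 with group means). *Runx1*, a factor of blood stem cells and T cells, was at 303, 324 and 334 TPM against 175 to 351 TPM. Its difference was largest in sgZbtb1, with group log2 differences of -0.05, -0.83, -0.20 and -0.16 (limma F-test among the 4, adjusted p = 1.8e-08). *Bcl2*, the survival factor, had the same form, at -0.14, -0.77, -0.22 and -0.30 (limma F-test, adjusted p = 3.0e-07).

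*Prkch*, a protein kinase C isoform, was at 70.8, 79.2 and 79.9 TPM in sgControl and 31.3 to 65.2 TPM (median 51.2 TPM) in the others, and fell most in sgZbtb1 (-0.95) and sgCbfa2t3 (-0.82). *Pnisr*, an SR-related protein, was at 271, 308 and 322 TPM against 212 to 262 TPM, with group differences between -0.26 and -0.42. *Mycbp2*, a large ubiquitin ligase, was at 212, 230 and 242 TPM against 142 to 207 TPM, lowest in sgCbfa2t2 (-0.53). The RNA-binding protein gene *Rbm6* (-0.39) and the small GTPase gene *Rhoq* (-0.42) completed the protein-coding genes without overlap. *Gria2*, an AMPA receptor subunit gene, had the smallest adjusted p among protein-coding genes that were shared (3.7e-06, limma, group means), at 211, 238 and 256 TPM against 98.2 to 254 TPM, with 11 of 12 libraries below sgControl.

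**Figure D2:**
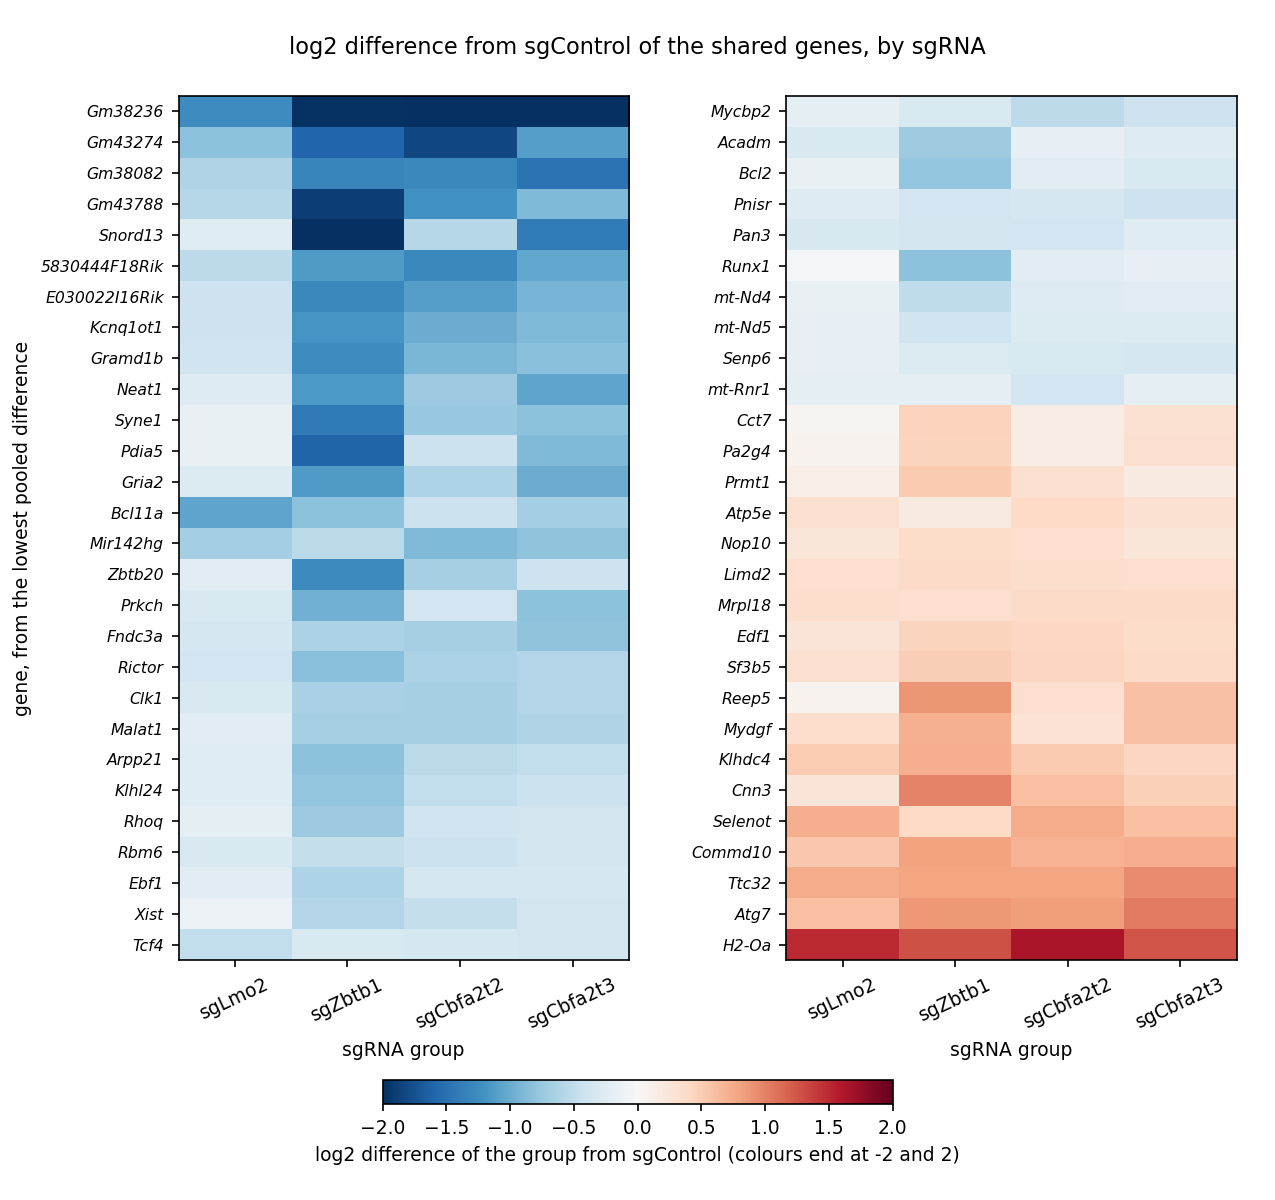
Colour gives the log2 difference of each sgRNA group from sgControl for the 56 shared genes, ordered by the pooled difference, with blue for lower and red for higher and the scale ending at -2 and 2. sgZbtb1 has the deepest colours in most rows and sgLmo2 the palest, while *H2-Oa*, *Selenot*, *Bcl11a* and *Tcf4* are as deep in sgLmo2 as in the others.

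Across the 38 lower genes the median log2 difference was -0.27, -0.80, -0.54 and -0.59 by group. Across the 18 higher genes it was 0.33, 0.51, 0.41 and 0.41. The difference was largest in sgZbtb1 in 23 of the 38 and 12 of the 18 genes, and smallest in sgLmo2 in 32 and 12. All 3 libraries of sgLmo2 lay below sgControl in 11 of the 38 genes, against 36 for sgZbtb1, 32 for sgCbfa2t2 and 30 for sgCbfa2t3. Over all genes tested these shares were 4.97%, 12.8%, 6.85% and 9.06%. Each group by itself against sgControl passed in 0, 34, 8 and 13 of the 38 lower genes (limma, adjusted p under 0.05). In the 18 higher genes it passed in 1, 14, 2 and 5. For sgLmo2 the lower genes thus share the sign of the mean, and none passed alone. The 56 genes were called from the average of the 4 groups, so a group with larger differences had more weight in choosing them and the order of the groups is a description. In the limma F-test among the 4 groups, 19 of the 56 genes had an adjusted p under 0.05, against 429 of 11554 genes overall (3.71%).

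The 13 shared genes that were not protein-coding were all lower. They were 6 genes of the type TEC, which are unspliced loci that the annotation marks as still to be tested by experiment, 5 lncRNAs, 1 snoRNA and the mitochondrial 12S rRNA. All 6 TEC genes lay inside an intron of a protein-coding gene on the same strand. *Gm38236* (chromosome 2, 68906003 to 68909231, within *Cers6*) was at 4.05, 5.23 and 6.45 TPM in sgControl, or 7 to 11 reads, and at 0 to 2.44 TPM in the 12 libraries, or 0 to 5 reads with a median of 1. It was at 0 in 5 libraries, among them all 3 of sgCbfa2t2, and a count of 0 allows up to 3 reads. It was the 1 shared gene whose mean exceeded 1 TPM only through sgControl, so it had to differ in this direction to be tested. *Gm43274* (chromosome 5, 118644373 to 118649372, within *Med13l*) was at 14.5, 15.1 and 18.2 TPM against 1.93 to 13.1 TPM (median 5.97 TPM), all 12 below sgControl (log2 difference -1.33, limma, adjusted p = 0.049 with group means). *5830444F18Rik* (chromosome 17, 51791470 to 51793461, within *Satb1*) was at 34.7, 37.5 and 39.5 TPM against 9.54 to 47.1 TPM (median 15.6 TPM), with 11 of 12 below.

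The longest run of A on the sense strand of each of the 6 TEC genes is shown, since oligo-dT primes at stretches of A. Capitals mark the run, in 60 bases of GRCm38 written 5′ to 3′ on the strand of the gene.
5830444F18Rik (*Satb1* intron, chr17:51792039-51792098, minus strand): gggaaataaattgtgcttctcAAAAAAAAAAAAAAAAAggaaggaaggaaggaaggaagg
E030022I16Rik (*Ddx6* intron, chr9:44620099-44620158, plus strand): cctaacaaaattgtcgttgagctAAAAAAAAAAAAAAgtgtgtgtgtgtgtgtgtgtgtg
Gm38082 (*Cux1* intron, chr5:136533838-136533897, minus strand): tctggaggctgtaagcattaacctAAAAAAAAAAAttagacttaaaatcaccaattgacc
Gm43274 (*Med13l* intron, chr5:118644540-118644599, plus strand): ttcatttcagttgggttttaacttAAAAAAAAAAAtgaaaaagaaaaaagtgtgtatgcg
Gm43788 (*Med13l* intron, chr5:118603776-118603835, plus strand): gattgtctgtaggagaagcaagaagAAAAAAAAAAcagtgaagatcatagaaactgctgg
Gm38236 (*Cers6* intron, chr2:68907051-68907110, plus strand): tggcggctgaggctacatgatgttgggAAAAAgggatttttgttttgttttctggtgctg
Of the 6, 5 held a run of 10 or more A, and *Gm38236* held at most 5. Over all 433 tested TEC genes a run of 10 or more A was present in 152 (35.1%), and among those lower in all 4 groups in 85 of 243, a like share.

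Most tested TEC genes did not pass, but the majority had the same direction. Of 433, 243 were lower in all 4 groups (56.1%) and 27 were higher (6.24%), against 21.4% and 20.3% of all genes tested. Of 577 lncRNA genes, 179 were lower (31.0%) and 80 higher (13.9%), and of 38 snoRNA genes, 12 were lower (31.6%) and none higher. Of 10167 protein-coding genes, 1952 were lower (19.2%) and 2172 higher (21.4%). The median log2 difference of TEC genes was -0.30, -0.63, -0.62 and -0.48 by group, on the log2(TPM + 1) scale, which understates changes of such low genes. The mean of 40 TEC genes exceeded 1 TPM only through sgControl, and without them 205 of 393 were lower in all 4 groups (52.2%).

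**Figure D3:**
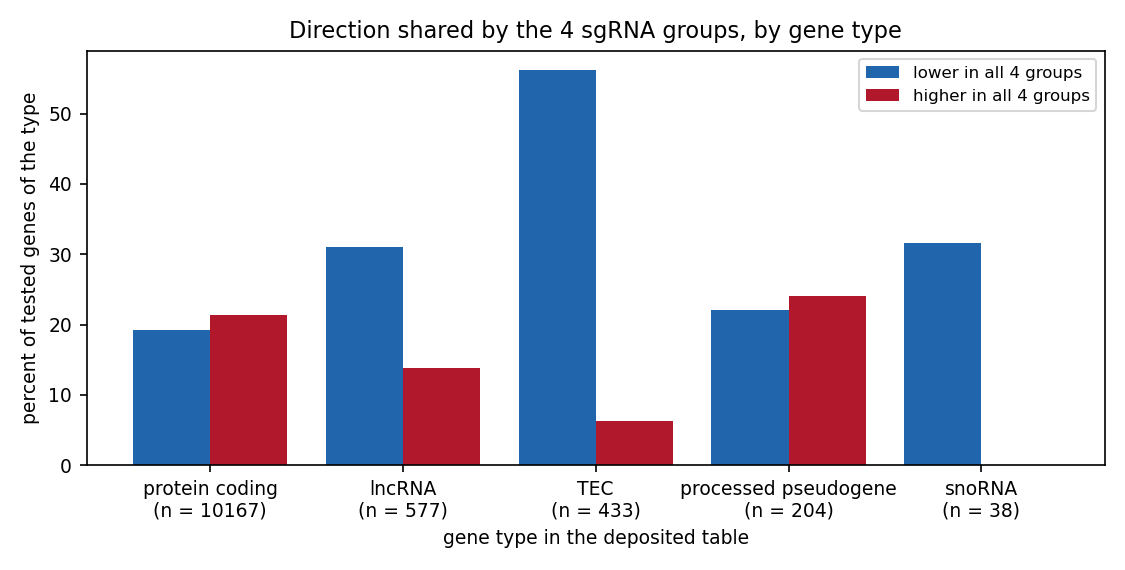
Bars give the percent of tested genes of each type that were lower (blue) or higher (red) than sgControl in all 4 sgRNA groups. TEC genes stand at 56.1% lower and 6.24% higher, and protein-coding genes at 19.2% and 21.4%.

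Of the tested TEC genes, 333 lay in an intron of a protein-coding gene on the same strand, and 197 of these were lower in all 4 groups (59.2%) and 13 higher (3.90%). Of the 56 outside protein-coding genes, 27 were lower (48.2%) and 8 higher (14.3%). For 327 of the intronic genes the host gene, 250 different ones, was tested too. The median log2 difference of these TEC genes was -0.57, and that of their hosts was -0.07. Of the 250 hosts, 71 were lower in all 4 groups (28.4%) and 38 higher, and 258 of the 327 TEC genes (78.9%) had a lower log2 difference than their host. Without the TEC genes that exceeded 1 TPM only through sgControl, 165 of 300 in introns were lower in all 4 groups (55.0%), the median of those with a tested host was -0.51, and 225 of 294 (76.5%) had a lower log2 difference than the host. *Satb1*, the host of *5830444F18Rik*, averaged 883 TPM in sgControl against 797 TPM in the 12 libraries, and *Med13l*, the host of *Gm43274* and *Gm43788*, 469 and 398 TPM. Whether reads were counted by strand is not given in the sources used here, so reads of an overlapping gene on the other strand cannot be told apart.

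Summed over all TEC genes, the libraries held 2530, 2736 and 2943 TPM in sgControl. The sums were 1664, 1994 and 2934 TPM in sgLmo2, 1462, 1531 and 1630 TPM in sgZbtb1, 1133, 1879 and 1979 TPM in sgCbfa2t2, and 1487, 1718 and 2188 TPM in sgCbfa2t3. Thus 11 of 12 libraries lay below all sgControl libraries, and the third sgLmo2 library lay among them. The mean of the 12 was 0.658 times that of sgControl.

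Several long nuclear RNAs were among the shared lower genes. *Malat1*, a lncRNA of nuclear speckles (chromosome 19, 5795690 to 5802672), was at 1669, 1838 and 1961 TPM in sgControl and at 863 to 1869 TPM (median 1268 TPM) in the others, with 11 of 12 libraries below sgControl. Its log2 difference was -0.53 ± 0.08 (SE, limma, adjusted p = 4.3e-06 with group means and 0.096 with 1 group), from -0.22 in sgLmo2 to -0.66 in sgZbtb1 and sgCbfa2t2. *Kcnq1ot1*, which silences imprinted genes in cis and lies antisense to *Kcnq1*, from whose reads it cannot be told apart without strand, was at 344, 380 and 409 TPM against 105 to 434 TPM (log2 difference -0.87, limma, adjusted p = 0.00015). *Xist*, which coats the inactive X chromosome, was at 1798, 1812 and 1825 TPM against 1068 to 1964 TPM (-0.39, limma, adjusted p = 0.00047). *Neat1*, the scaffold of paraspeckles, had a log2 difference of -0.80 (limma, adjusted p = 0.034). In both *Kcnq1ot1* and *Xist* 11 libraries lay below sgControl and the third sgLmo2 library lay above it. Of the 7 tested members of the list of nuclear retained RNAs, 4 were called with group means, all lower, against 0.615% called and 0.329% shared and lower among all genes, and the list median was -0.53 against -0.01 for all genes tested.

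**Figure D4:**
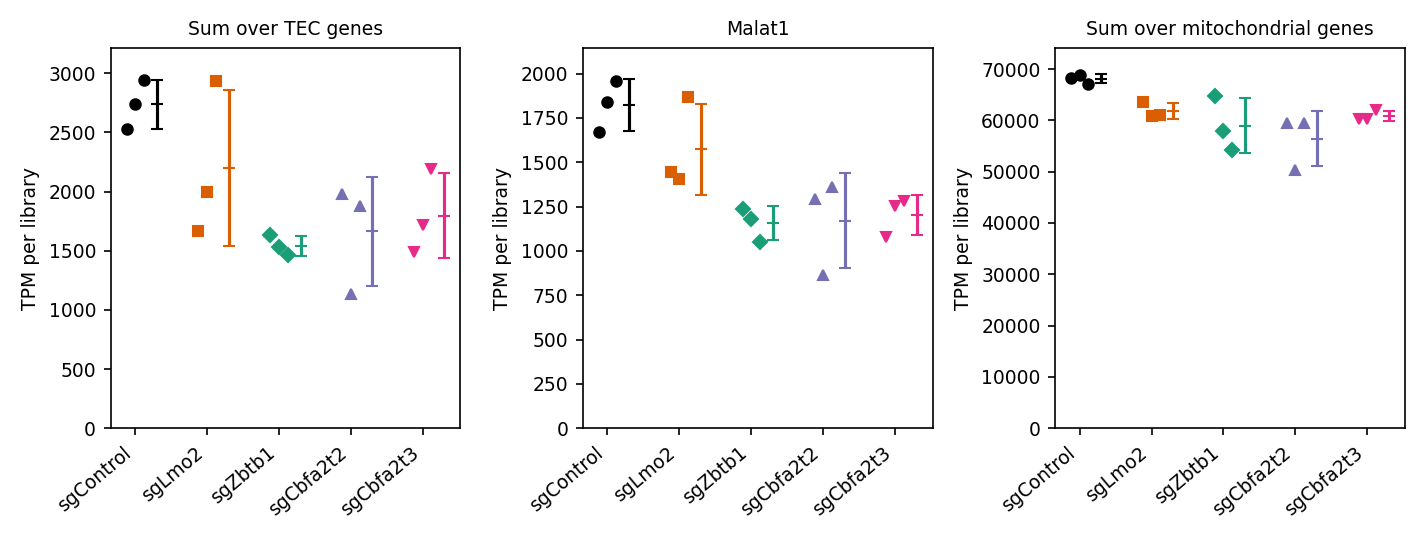
Points are libraries, and the bars beside them the mean and SD of each group (n = 3), for the summed TPM of TEC genes, the TPM of *Malat1* and the summed TPM of mitochondrial genome genes. In the first 2 panels the third sgLmo2 library lies at the level of sgControl, at 2934 and 1869 TPM, and in the last all 12 libraries lie below sgControl.

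The summed level of mitochondrial genome genes, of which the 2 rRNAs made up 66.7% to 74.9%, was 67156, 68300 and 68908 TPM in sgControl and 50330 to 64797 TPM (median 60234 TPM) in the 12 libraries, all of which lay below sgControl. Taken apart, 11 of 12 libraries lay below sgControl for the rRNAs (47377 to 49889 TPM in sgControl, 33587 to 48216 TPM in the others) and 11 of 12 for the 13 protein-coding genes (18736 to 20775 TPM and 14439 to 18738 TPM), 5 of which were listed at 0 in every library. *mt-Nd4* and *mt-Nd5*, complex I subunits, were called with group means at a log2 difference of -0.28 each (limma, adjusted p = 0.011 and 0.039). Of 8 tested mitochondrial genes of the list, 6 were lower in all 4 groups and 1, *mt-Nd3*, was higher. Of 77 tested nuclear genes for respiratory chain subunits, 45 were higher in all 4 groups (58.4%) and 3 lower (3.90%), against 20.3% and 21.4% of all genes, 18 were higher and none lower at an unadjusted p under 0.05, against 4.14% and 4.84% of all genes, and the median log2 difference was 0.12, from 0.07 in sgLmo2 to 0.16 in sgCbfa2t2. *Atp5e* was the 1 that passed with group means. Of 80 ribosomal protein genes, 35 were higher (43.8%) and 1 was lower in all 4 groups, with a median of 0.08, but 2 had an unadjusted p under 0.05 and none was called. Both lists hold short genes, with median exonic lengths of 1675 and 1755 bases against 4578 bases for all protein-coding genes tested.

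Among protein-coding genes the difference ran with exonic length, which is the total of all annotated exons of a gene as deposited, with overlaps counted once, and not the length of 1 transcript. The 18 higher shared genes had a median exonic length of 3094 bases and spanned a median of 9.40 kb of genome, and the 25 lower ones 10187 bases and 118 kb, against 4578 bases and 23.6 kb for all protein-coding genes tested. All protein-coding genes with a mean above 10 TPM were then placed in 10 equal bins of exonic length, a step chosen after the shared genes were seen. In the shortest bin (348 to 1916 bases) the median log2 difference was 0.08, with 276 genes higher and 51 lower in all 4 groups. In the longest (10440 to 123179 bases) it was -0.11, with 69 higher and 321 lower. The longest bin minus the shortest was -0.20 over the 12 libraries, and -0.19 among genes with a mean above 100 TPM. Bins of genomic span ran the same way, from 0.07 to -0.09.

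**Figure D5:**
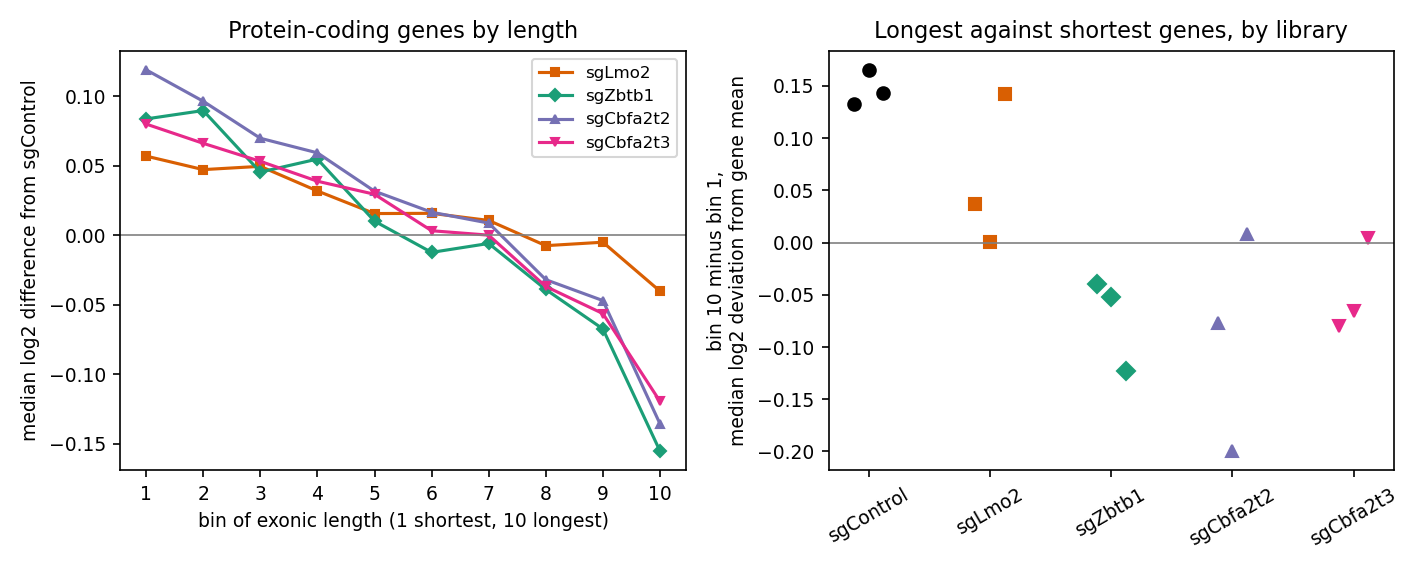
Left, the median log2 difference from sgControl of protein-coding genes in 10 bins of exonic length, one line per sgRNA group, which descends from 0.06 to 0.12 in the shortest bin to between -0.04 and -0.16 in the longest. Right, the longest bin minus the shortest for each library, as the median log2 deviation from the mean of each gene over 15 libraries.

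By library, the longest bin exceeded the shortest by 0.13, 0.14 and 0.17 on the log2 scale in sgControl. The 12 other libraries ran from -0.20 to 0.14 with a median of -0.05, and 11 of them lay below all 3 sgControl libraries. The exception was again the third sgLmo2 library, at 0.14. In the longest bin the group medians were -0.04, -0.16, -0.14 and -0.12.

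Of 27 gene lists, 7 held a shared gene, and 0.485% of all genes tested were shared. With 1 or 2 genes in most of these lists, nothing is read from their counts. In the list of Lmo2 complex members, *Tcf4* and *Runx1* were lower and the other 15 of 17 tested were not called, with a list median of 0.09. In these bulk libraries fewer cells of a type and less RNA per cell cannot be told apart. In the T-lineage list 1 of 24 (*Bcl11a*) and in the B-lineage list 1 of 18 (*Ebf1*) was shared, and in each 1 more was called but not lower in sgLmo2. The T-lineage median was -0.18, and 0.05, -0.58, -0.18 and -0.36 by group. The progenitor list, with 6 of 20 higher (30.0%) and 2 lower (10.0%) in all 4 groups, against 20.3% and 21.4% of all genes, held no called gene (median -0.01). In the Bcl2 family 1 of 12 (*Bcl2*) was shared, and 2 were higher and 2 lower in all 4 groups.

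The lists of p53 targets and of DNA damage genes held no gene called from the average of the 4 groups. Of 27 p53 targets, none passed with group means and none had an unadjusted p under 0.05 in the pooled fit, with a list median of -0.0019. *Cdkn1a*, the cell-cycle inhibitor induced by p53, was at 478 to 508 TPM in sgControl and 382 to 715 TPM in the others, with group log2 differences of -0.05, 0.46, -0.09 and 0.17 (limma F-test, adjusted p = 2.5e-05), and of the 4 comparisons with sgControl that of sgZbtb1 passed (limma, adjusted p = 0.00050). Of 32 DNA damage signalling and repair genes, 7 were higher (21.9%) and 10 lower (31.2%) in all 4 groups, against 20.3% and 21.4% of all genes, with a median of -0.04. The most abundant of them, *Trim28*, was at 573 to 603 TPM in sgControl and 614 to 770 TPM in the others, a log2 difference of 0.18 that did not pass (limma, adjusted p = 0.18 with group means), while sgZbtb1 against sgControl did (0.26, limma, adjusted p = 0.031). The part of genome cutting in any result was not tested.

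No gene of the growth and metabolic lists was called. Against 20.3% higher and 21.4% lower in all 4 groups over all genes, 17 of 43 DNA replication genes were higher (39.5%) and 1 was lower (median 0.09), as were 10 of 27 Atf4 response genes (37.0%) and 1 (0.11). The shares of higher genes in the mitosis list (8 of 38, 21.1%, median 0.05) and the Myc network list (5 of 22, 22.7%, median 0.06) were near that of all genes, with 1 lower in each. Of 23 cholesterol synthesis genes 2 were higher and 10 lower (43.5%, median -0.13), of 29 interferon response genes 6 and 11 (37.9%, -0.21), and of 27 hypoxia and glycolysis genes 2 and 9 (33.3%, -0.09). The most abundant genes of these lists, among them *Mcm7* (0.01), *Top2a* (0.02), *Npm1* (0.16), *Atf4* (0.09), *Srebf2* (0.01), *B2m* (-0.07) and *Ldha* (-0.01), were not called. Cytokine receptor and JAK-STAT genes (median -0.04), heat shock and immediate early genes (0.05), corepressor complexes (-0.04), Polycomb and DNA methylation genes (-0.02) and histone genes (0.00) held no called gene either. Markers of myeloid and dendritic cells, with summed levels of 897 to 993 TPM in sgControl and 868 to 992 TPM in the others, of NK cells and ILCs (385 to 453 TPM and 271 to 485 TPM) and of erythroid cells and megakaryocytes (830 to 899 TPM and 671 to 955 TPM) overlapped between the groups.

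The 15 genes that were called but not shared were all lower on average, and in every one of them sgLmo2 alone lay above sgControl. Among them were *Ccr9*, a chemokine receptor of thymus-homing cells, *Thy1*, *Txk* and *Ctsw* of T and NK cells, *Ly6d*, a marker of B-lineage priming, and *Jchain*. *Ly6d* was at 134, 155 and 186 TPM in sgControl, with log2 differences of 0.34, -2.40, -0.69 and -1.43. *Jchain* was at 853, 1159 and 1195 TPM in sgControl and at 217 to 1503 TPM in the other 12, with -2.02 in sgZbtb1 and 0.33 in sgLmo2. All 15 differed among the 4 sgRNAs in the limma F-test.

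By the thresholds used in the study (unadjusted p under 0.05, absolute log2 difference above 1, mean above 10 TPM in either arm), the 12 libraries against sgControl gave 34 genes (0.294%), 32 lower (0.277%) and 2 higher (0.0173%), the latter *H2-Oa* and *Phf19*. Of the 34, 28 had the same direction in all 4 groups. The count was 24 to 63 when single libraries were left out, 63 without the first sgControl library, and 14 when the mean across all 15 libraries had to exceed 10 TPM.

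ChIP-seq peaks of Zbtb1 (5898) and Cbfa2t3 (6077) in these cells were set beside the shared genes by the nearest gene given in the lists. Of the 25 protein-coding genes that were lower, 12 had a Zbtb1 peak (48.0%) and 13 a Cbfa2t3 peak (52.0%), against 29.7% and 22.7% of protein-coding genes tested. Within 10 kb of the start site 10 of the 25 had a Zbtb1 peak (40.0%) and 8 a Cbfa2t3 peak (32.0%), against 24.3% and 13.8% of protein-coding genes. At a peak score of at least 30 the counts were 8 (32.0%) and 11 (44.0%), against 15.9% and 14.05%. Of the 18 higher ones, 6 had a Zbtb1 peak and 6 a Cbfa2t3 peak (33.3% each). Within 10 kb these numbers were 5 (27.8%) and 3 (16.7%). With peaks of a score of at least 30, 2 of the 18 had a Zbtb1 peak and 2 others a Cbfa2t3 peak (11.1% each). These shares were below the 15.9% and 14.05% of protein-coding genes tested. The lower genes span more of the genome than other genes, and the part of this in the number of nearest peaks was not tested. Over all genes lower in all 4 groups the shares were 25.9% for Zbtb1 and 21.0% for Cbfa2t3, against 26.8% and 20.5% of all genes tested.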

How the data were processed

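Libraries were grouped by the sample labels. For QuantSeq, the authors trimmed reads with fastp, mapped them to mm10 with STAR and deposited 1 value per gene and library, called TPM, which is CPM, since values near 0 step by the worth of 1 read whatever the gene length. Whole reads were recovered for 99.97% to 99.98% of values above 0 within 0.1 read, and 1 line without a gene name, worth 1 read per library, was left out. The deposited averages, SDs and test columns of the authors' own comparisons were not used. Peaks were called by the authors with HOMER and deposited with a peak score.

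The 12 libraries were compared with sgControl in limma 3.58.1 (R 4.3.3) with a trend on log2(TPM + 1) and Benjamini-Hochberg adjustment over 11554 genes. Group means, each sgRNA against sgControl, and the F-test among the 4 sgRNAs came from a fit with 5 means. Alternatives were a pseudocount of 0.1, no filter, a mean above 10, size factors, median centring, no trend, a replicate block, edgeR 4.0.16 and DESeq2 1.42.0 on recovered reads, the study's rule on unlogged values, and leaving out libraries or sgRNAs. In simulated data of 11430 genes for 12 libraries against 3, 99.5% of 200 changed genes were recovered, with 12 unchanged genes called. The share of differences recovered in the deposited libraries was not tested.

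Genes named were up to 10 protein-coding and 4 other genes per direction with an adjusted p under 0.05, the same direction in all 4 groups, a mean above 10 in either arm and no overlap of the 12 and 3 libraries, the 4 targets, up to 3 called genes per list or else the 2 most abundant, and the 6 shared genes with the smallest F-test p. As the pooled fit called none, calls with group means took their place, which was decided with the values known, as were the other shared genes named, the 15 called without a shared direction, the gene type and length comparisons and the choice of TEC genes. The members and gene lists were chosen with earlier results of these data known. Positions, introns and sequences are from GENCODE and the GRCm38 genome, where 11548 of the 11554 genes were found. Replicates of a group differed by more than counting noise (chi-square per degree of freedom 2.23 to 3.60), so none was counted as a duplicate. SDs and SEs measure the spread between libraries, and the limit of 3 reads for a count of 0 covers counting error only.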

Additional observations from a re-analysis of the deposited data

Results flagged for a closer look

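Of the 115 genes examined singly, 45 differed among the 4 sgRNAs in the limma F-test, and the adjusted p-values are given in parentheses. Over all genes tested, 429 of 11554 differed (3.71%). The 115 included shared genes chosen for the smallest F-test p and the genes called without a shared direction. Their share is therefore not set against that of all genes. Groups of 3 or 12 libraries were not tested for single outlying libraries.

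The 15 genes that were lower on average but higher in sgLmo2 all differed among the sgRNAs, namely *Jchain* (3.2e-25), *Ly6d* (2.3e-22), *Ccr9* (1.0e-16), *H19* (7.9e-16), *S100a4* (5.3e-14), *Thy1* (7.5e-14), *Gprin3* (2.9e-10), *Ctsw* (3.3e-10), *Cdh1* (5.4e-10), *Cpne2* (6.4e-09), *Txk* (6.8e-09), *Ptpn1* (9.2e-09), *Lztfl1* (1.2e-08), *Cd163l1* (4.7e-08) and *Lrba* (3.0e-07). Among the shared lower genes, whose direction is the same in the 4 groups but whose size is not, they were *Runx1* (1.8e-08), *Snord13* (1.9e-08), *Bcl2* (3.0e-07), *Gria2* (8.9e-06), *Pdia5* (1.5e-05), *Xist* (0.00066), *Malat1* (0.0017), *Zbtb20* (0.0018), *Acadm* (0.0038), *Syne1* (0.0048), *mt-Nd4* (0.0097), *Prkch* (0.015), *Kcnq1ot1* (0.022) and *Ebf1* (0.043). Among the shared higher genes they were *Reep5* (1.7e-07), *Cct7* (0.0013), *Pa2g4* (0.0023), *Cnn3* (0.0099) and *Prmt1* (0.014).

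The others were targeted genes or members of gene lists that the pooled comparison did not call, namely *Cbfa2t3* (3.3e-12), *Hbb-bt* (1.1e-09), *Id2* (7.3e-08), *Ncl* (1.0e-05), *Cdkn1a* (2.5e-05), *Zbtb1* (0.00014), *Hist1h1e* (0.00050), *Hsp90aa1* (0.0036), *Hoxa9* (0.0059), *Bst2* (0.0089) and *B2m* (0.037). *Zbtb1* and *Cbfa2t3* were highest in the libraries labelled with their own sgRNA.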

How the results depend on the processing

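The count called with the 12 libraries as 1 group (0) rose to 1 with a pseudocount of 0.1, to 2 with DESeq2, median centring or no sgZbtb1 libraries, to 8 without a filter and to 42 without the sgLmo2 libraries, each with as many of shared direction, and to 71 (56 shared) with 5 group means. It was 0 to 9 without single libraries, 9 without the third of sgLmo2. The 56 became 16 without a filter, 2 without a trend, 200 without sgLmo2, 5 without sgZbtb1 and 13 to 77 without single libraries, 77 without the third of sgLmo2 and 13 without the third of sgControl. With a replicate block they became 101, all 56 included, and the pooled count stayed at 0. Equal numbers do not pair the samples (mean correlation of deviations 0.04 over 30 pairs, against -0.02 for unequal numbers). The 34 genes by the thresholds of the study became 14 at a mean above 10, 57 without sgLmo2, 21 without sgZbtb1 and 24 to 63 without single libraries, 63 without the first of sgControl. The share lower among shared genes ran from 61.0% to 77.0% over scalings, filters and tools. TEC genes lower in all 4 groups numbered 28 at a mean above 10, where fewer were tested, 452 without a filter, 205 without genes that passed only through sgControl and 205 to 259 without single libraries. All genes lower in all 4 groups numbered 1552 at a mean above 10 and 4154 without a filter. The 429 genes that differed among the sgRNAs became 229 without a filter, 83 without a trend, 225 without sgLmo2, 69 without sgZbtb1 and 298 to 459 without single libraries. The longest minus the shortest length bin was -0.22 to -0.18 without single libraries. Shared higher genes with a Zbtb1 peak numbered 2 at a score of 30 or more, those with a Cbfa2t3 peak 2 at that score and 3 within 10 kb, and all shared lower genes, protein-coding or not, with a Cbfa2t3 peak 9 of 38 within 10 kb, against 14 of 38 at any distance. The causes of these shifts were not tested. The alternatives for the 56 genes, the counts of shared direction, the TEC genes, the length bins and the difference among sgRNAs were chosen after seeing the data.

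Of 3331 recomputed log2 differences of single genes, 3282 kept their sign, and none of the 71 called genes reversed. The 13 genes that reversed, none of them called, had these log2 differences, under DESeq2 *Id2* 0.039, under median centring *Id2* 0.0033, *Xpc* 0.011, *Ldha* 0.0045, under edgeR *Id2* 0.045, *Ldha* 0.0013, without sgCbfa2t2 *Srebf2* -0.0014, *Mcm7* -0.00058, *Rps26* -0.0060, without sgCbfa2t3 *Cbfa2t3* -0.0018, *Hbb-bt* -0.082, *Xpc* 0.027, *Srebf2* -0.018, *Top2a* -0.0097, without sgLmo2 *Xpc* 0.0098, without sgZbtb1 *Id2* 0.19, *Pim1* 0.0083, *Ldha* 0.018, *Mcm7* -0.019, *Top2a* -0.0025. Without single libraries the log2 differences ran for *Fcer1g* -0.00038 to 0.095, *Id2* -0.11 to 0.11, *Il18r1* -0.13 to 0.020, *Ldha* -0.048 to 0.024, *Lig1* -0.011 to 0.065, *Mcm7* -0.0075 to 0.024, *Pim1* -0.068 to 0.021, *Rps26* -0.0066 to 0.033, *Srebf2* -0.075 to 0.094, *Xpc* -0.14 to 0.089.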
